A study of Homo sapiens with 4 samples.

Results

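U87 is an established human glioblastoma cell line, and Bru is brusatol, a plant compound of the quassinoid class dissolved in DMSO. The 2 U87 libraries of the study were compared, 1 labelled Control and 1 labelled BRU, out of 4 libraries in all. The Bru cells were treated for 48 h at the concentration that inhibits growth of the line to the midpoint between none and full. The labels do not say what the Control cells received, and DMSO alone served as control in the study's other assays. The other 2 libraries are Control and 48 h of Bru in U251, another glioblastoma line. The study names the midpoint of inhibition as the concentration for sequencing and gives no molar value for these libraries. Its viability time courses used a higher concentration for U251 than for U87, so that the dose may differ between the lines. Genes were described when they were protein-coding and had an FPKM, the fragments on a gene scaled by its length and by the size of the library, of at least 1 in either U87 library. This held for 10653 of 19951 protein-coding genes and of 58735 genes in all. Of them, 10278 had an FPKM of at least 1 in both libraries, 172 passed only through Bru and 203 passed only through Control. Each condition is a single library of a single line, so that no difference below has a replicate check and no p-value is given.

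Brusatol is known as an inhibitor of protein synthesis and as a compound that lowers NRF2, the transcription factor of antioxidant genes, at the protein level. Several programmes below respond in human cells to a lack of sterols, amino acids or protein folding capacity. The sterol programme is run by SREBP-2, encoded by SREBF2, and SREBP-1, encoded by SREBF1, which are held in the endoplasmic reticulum by INSIG proteins when sterols are plentiful and are released to the nucleus when they are scarce. There they act together with NF-Y, a factor that binds CCAAT boxes, on the genes of cholesterol and fatty acid synthesis. The integrated stress response works through the transcription factor ATF4, and p53 drives genes of cell cycle arrest and cell death.

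The promoters of the genes of sterol and lipid synthesis are shown because these genes were lower together in Bru and because their regulation is written in short motifs. The 5 stretches below are the 250 bases before the RefSeq start of genes with a large difference (build GRCh38.p14, read 5′ to 3′ along the gene). Capitals mark each CCAAT box on either strand, so that the reverse strand reads ATTGG. The genes were picked by hand, and a stretch without a box was left out, so that each stretch shown had to hold one. FADS2 of fatty acid synthesis, which also had a large difference, is not shown.
DHCR7 (chr11:71448394-71448643, minus strand): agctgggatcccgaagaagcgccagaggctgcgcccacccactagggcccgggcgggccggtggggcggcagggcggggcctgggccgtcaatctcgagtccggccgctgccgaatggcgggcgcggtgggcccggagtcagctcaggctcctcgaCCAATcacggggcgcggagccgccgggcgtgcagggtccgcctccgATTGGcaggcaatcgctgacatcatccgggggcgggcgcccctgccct
MSMO1 (chr4:165327419-165327668, plus strand): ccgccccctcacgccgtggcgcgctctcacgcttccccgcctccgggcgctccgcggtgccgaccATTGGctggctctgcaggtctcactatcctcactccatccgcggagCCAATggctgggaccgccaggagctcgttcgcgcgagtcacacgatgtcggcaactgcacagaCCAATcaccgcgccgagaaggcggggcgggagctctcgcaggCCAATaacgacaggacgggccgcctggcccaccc
HMGCS1 (chr5:43313413-43313662, minus strand): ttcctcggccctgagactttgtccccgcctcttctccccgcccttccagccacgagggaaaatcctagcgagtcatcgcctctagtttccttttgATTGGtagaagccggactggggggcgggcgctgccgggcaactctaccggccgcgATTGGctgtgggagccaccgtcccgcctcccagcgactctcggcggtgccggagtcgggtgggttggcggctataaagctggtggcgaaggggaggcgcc
INSIG1 (chr7:155297628-155297877, plus strand): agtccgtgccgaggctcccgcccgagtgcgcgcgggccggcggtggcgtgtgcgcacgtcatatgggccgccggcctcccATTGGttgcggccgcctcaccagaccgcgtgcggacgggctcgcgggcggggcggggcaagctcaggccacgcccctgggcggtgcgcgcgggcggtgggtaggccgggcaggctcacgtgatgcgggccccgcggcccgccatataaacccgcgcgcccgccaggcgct
SCD (chr10:100346983-100347232, plus strand): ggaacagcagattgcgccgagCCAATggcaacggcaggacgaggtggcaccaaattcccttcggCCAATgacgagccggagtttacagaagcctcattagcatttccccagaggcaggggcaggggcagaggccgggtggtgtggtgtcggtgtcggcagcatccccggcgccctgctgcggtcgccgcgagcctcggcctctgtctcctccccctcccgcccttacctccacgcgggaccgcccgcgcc
A CCAAT box stood in this window in 13 of the 16 genes of cholesterol synthesis with a RefSeq promoter in 12 of 19 genes of fatty acid synthesis and in 6 of 13 genes of sterol uptake and control, the list that holds INSIG1. Of all 8522 expressed genes that matched a RefSeq promoter by symbol, 42.0% held one, and of all 14896 protein-coding genes with a promoter 40.5% did. The match is a description of these letters and not of bound protein.

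SREBF2 is shown for the sterol regulatory element, the site through which SREBP proteins act on their own gene. Capitals mark TCACNCCAC, searched on both strands.
SREBF2 (chr22:41832855-41833104, plus strand): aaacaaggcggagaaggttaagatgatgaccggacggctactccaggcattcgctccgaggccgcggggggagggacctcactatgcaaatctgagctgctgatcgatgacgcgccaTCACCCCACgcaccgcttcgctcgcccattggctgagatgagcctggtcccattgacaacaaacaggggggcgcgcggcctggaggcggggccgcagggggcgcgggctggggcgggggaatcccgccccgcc
These letters were found in the window of SREBF2 and of 1.21% of all protein-coding genes with a promoter, and in 0 of the 16 cholesterol synthesis genes.

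Multiplying FPKM by gene length gave numbers of fragments, called reads, that were whole within 0.01 for 100% of the values above 0. The U87 libraries held 18260975 (Control) and 17083896 (Bru) reads on genes, and a gene of 1 kilobase with 3 reads, the floor used here, had an FPKM of 0.166 and 0.172. Genes of the mitochondrial genome took 3.93% and 4.06% of the reads. The expressed genes had a median of 1480 reads over both libraries. A ratio is the log2 of the value in Bru over that in Control, each as FPKM + 0.1, which understates the difference of low genes. Intervals in brackets are 95% exact Clopper-Pearson intervals of the ratio without the 0.1, and they cover counting error only. Genes that U251 Control held at 500 reads or more and U87 Control at 2 reads or fewer served to compare the Bru libraries. These 78 genes together held 72123 reads in U251 Bru and 186 in U87 Bru, against 136364 and 30 in the Control libraries that chose them. They were chosen for few reads in U87 Control, which favours a higher sum in U87 Bru. No rise from Control to Bru in U87 is therefore read from these sums. The astroglial marker GFAP was low, with 47 reads in Control and 31 after Bru, and SOX2, a stem cell factor of many gliomas, had 0 and 2. Of the 14 glioma and astroglial markers 6 reached an FPKM of 1 in either library. VIM, CD44, SOX9 and SLC1A3, which mark mesenchymal and astroglial cells, did so in both.

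Most genes differed little between the libraries. The ratio lay within 1.5-fold in 95.1% of the expressed genes, the median was -0.06, and the middle of the distribution ran from -0.21 at the 25th percentile to 0.08 at the 75th. Past 2-fold, 47 genes were higher in Bru (0.441%) and 67 were lower (0.629%). Past 1.5-fold, 163 genes were higher (1.53%) and 359 were lower (3.37%). At any size of ratio, 4171 of the 10653 genes were higher and 6482 were lower. The interval lay above 0 in 1738 genes and below 0 in 3539. These percentages and counts are the background for the gene lists below. The higher genes were mostly low in level, since 11 of the 47 had an FPKM of at least 1 in both libraries, against 42 of the 67 lower genes. Of the 114 genes past 2-fold in either direction (1.07%), 26 had fewer than 50 reads over both libraries and 109 had an interval that left out 0. Just inside the minimum of 1 stood UFSP1, whose highest FPKM was 1.00012, NUDT17 and BCL2L2-PABPN1, and just outside stood RAPGEF6 at 0.999846, C22orf23 and U2AF1L4.

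**Figure D1:**
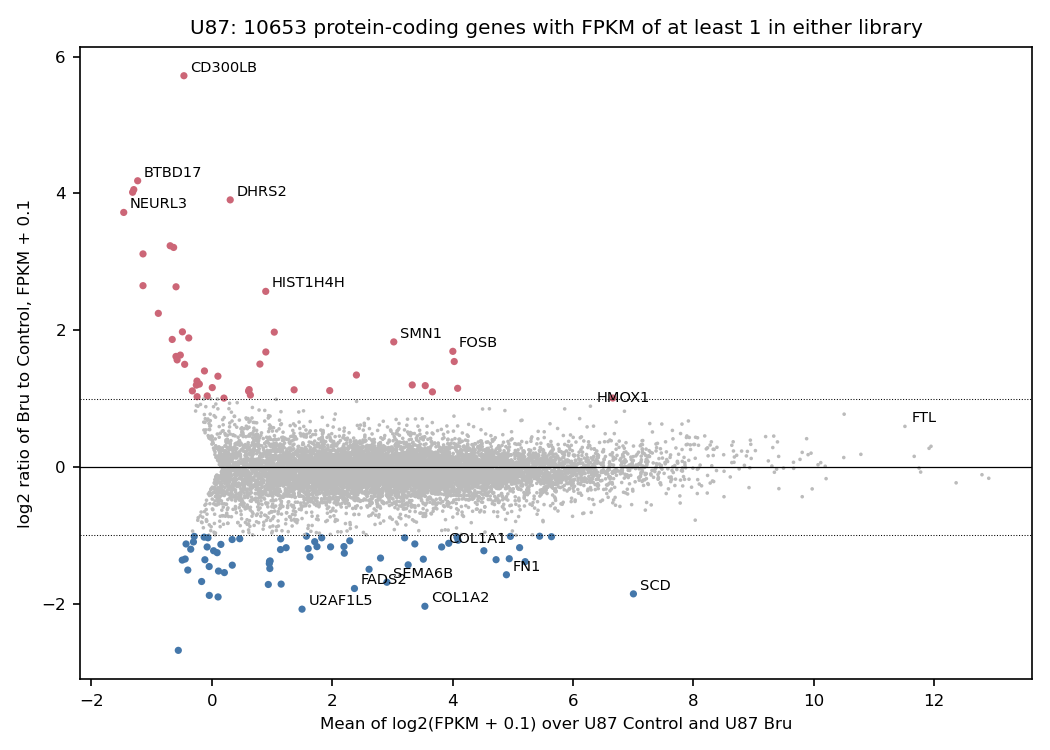
Each point is 1 of the 10653 expressed protein-coding genes of U87, with the mean of log2(FPKM + 0.1) over both libraries on the x axis and the ratio of Bru over Control (log2) on the y axis. Dotted lines mark 2-fold, red points are the 47 genes higher and blue points the 67 genes lower past it, and most red points lie at low FPKM while SCD and FN1 are lower at high FPKM.

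Cholesterol synthesis stood lowest of the gene lists. Of the 20 expressed enzymes of the path from acetyl-CoA to cholesterol, 19 were lower in Bru and 1 was higher, with a median ratio of -0.75. Past 1.5-fold 14 were lower and 0 were higher, and past 2-fold 5 were lower. The early enzyme HMGCS1, which makes HMG-CoA, went from 1542 reads in Control to 578 in Bru, a ratio of -1.35 (interval from -1.50 to -1.22). MVK, the mevalonate kinase, went from 792 to 334 reads (-1.16). SQLE, which oxidises squalene, went from 1566 to 794 reads (-0.92).

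The late steps held the largest differences. DHCR7, which makes cholesterol from its last precursor, had an FPKM of 15.7 in Control and 5.75 in Bru, a ratio of -1.43 (interval from -1.61 to -1.29). MSMO1, which removes methyl groups from the ring, had an FPKM of 42.2 and 16.4 (-1.36). LBR, a receptor of the nuclear envelope that also reduces sterols, had 909 and 845 reads, and the kinase PMVK had 503 and 538 reads, a ratio of 0.15. The other 18 genes had ratios between -1.43 and -0.55. In U251 the same 20 genes had a median of -0.71, with 18 lower and 2 higher.

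The genes of sterol uptake and control were mostly lower as well. Of 14 expressed genes, 10 were lower and 4 higher, with a median of -0.28, and 5 were lower and 1 was higher past 1.5-fold. SREBF2 had 2033 reads in Control and 1020 in Bru, a ratio of -0.93 (interval from -1.05 to -0.83), and SREBF1 had 1971 and 1314 reads, a ratio of -0.53. INSIG1, the anchor of SREBP and itself an SREBP target, went from an FPKM of 59.6 to 22.7 (-1.39). On the other side, ABCA1, which exports cholesterol, had 998 and 1334 reads (0.46), and NR1H3, the liver X receptor alpha, had 148 and 206 reads (0.51). CH25H, which makes 25-hydroxycholesterol, had 30 and 63 reads, a ratio of 1.05 (interval from 0.48 to 1.80). It was the 1 gene higher past 1.5-fold. It passed the minimum only through Bru, so that it had to be higher there.

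All 20 expressed genes of fatty acid synthesis had lower values in Bru, with a median of -0.33, 5 lower past 1.5-fold and 2 past 2-fold. SCD, the desaturase that makes oleate, was the most abundant of them, with an FPKM of 244 in Control and 67.4 in Bru and a ratio of -1.86. FADS2, the desaturase of long polyunsaturated fatty acids, went from 1889 to 517 reads (-1.78, interval from -1.96 to -1.67). FASN, the fatty acid synthase, went from 7928 to 3817 reads, a ratio just short of the 2-fold cutoff. ACLY, which supplies cytosolic acetyl-CoA, had 10241 and 8422 reads (-0.23), so that the list was led by the desaturases and FASN. SREBF1 differed between the lines: its ratio was -2.31 in U251, and the difference of U87 minus U251 was 1.78 (exact interval from 1.66 to 1.94, counting error only).

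**Figure D2:**
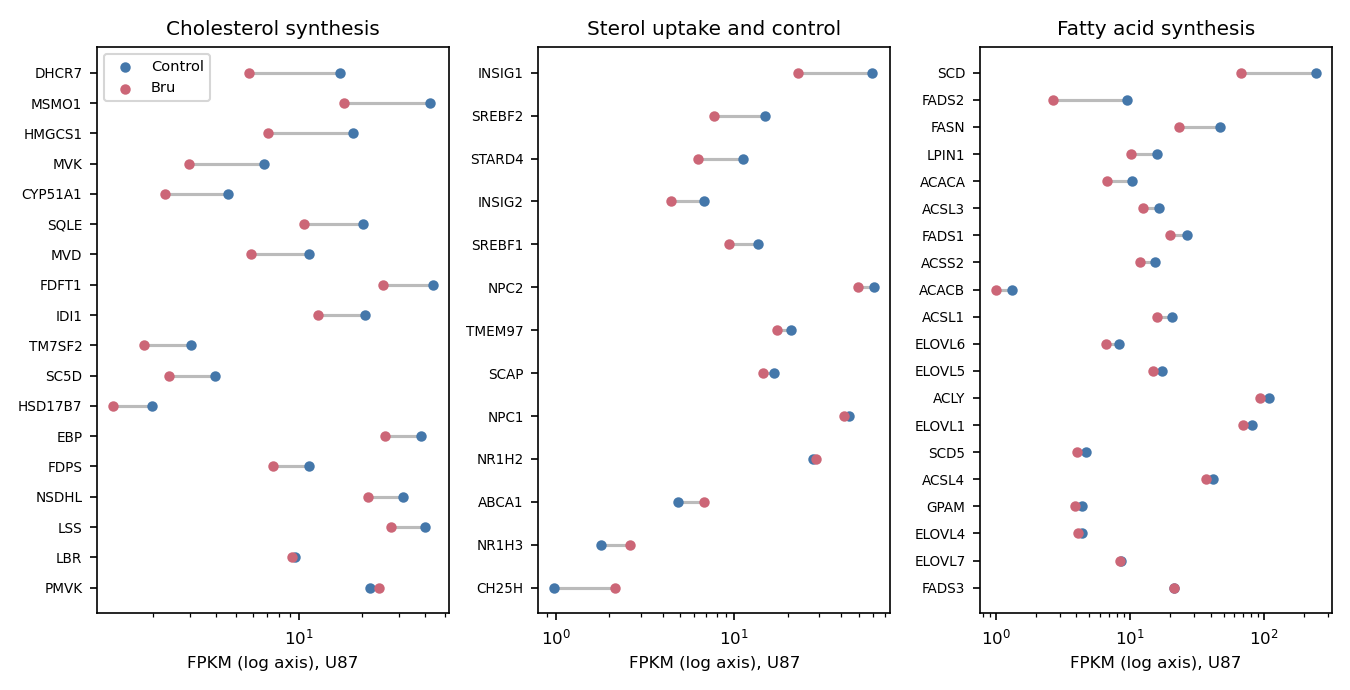
FPKM of expressed genes in U87 Control (blue) and U87 Bru (red) on log axes, in 3 lists ordered by ratio, with 1 library per point. The Bru point lies to the left of Control for 17 of the 18 cholesterol synthesis genes drawn and for 20 of 20 fatty acid genes, and to the right for ABCA1, NR1H3 and CH25H.

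Genes of the extracellular matrix were lower over a wide front, with smaller median differences than cholesterol synthesis. Of 16 expressed collagen genes, 13 were lower and 3 higher (median -0.25), 4 of them lower past 1.5-fold. The 2 chains of type I collagen, the main fibrous collagen of connective tissue, led the list. COL1A2 went from 4735 to 1096 reads (-2.04) and COL1A1 from 3741 to 1591 reads (-1.17, interval from -1.26 to -1.09). In U251 COL1A1 had 202 and 121 reads, and its difference of ratios, U87 minus U251, was -0.67 (exact interval from -0.96 to -0.27). COL5A1, which starts type I fibrils, had a ratio of -0.70, and COL8A1 one of -0.88. COL4A2 of the basement membrane had 434 and 401 reads (-0.06), and COL7A1, which anchors the epidermis, had 4799 and 4811 reads (0.06).

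The enzymes that process collagen were lower more evenly. Of 21, 20 were lower and 1 was higher, with a median of -0.40 and a lowest ratio of -0.66. SERPINH1, the collagen chaperone of the endoplasmic reticulum, had 3827 and 2331 reads, the prolyl 3-hydroxylase P3H1 had 1486 and 909, and LOXL1, which cross-links elastic fibres, had 1392 and 863. PLOD2, a lysyl hydroxylase, was the 1 gene above 0, with 3177 and 3341 reads (0.13).

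Among 41 matrix glycoproteins and proteoglycans 35 were lower and 6 higher (median -0.38), and 12 were lower and 1 was higher past 1.5-fold. FN1, which encodes fibronectin, had an FPKM of 51.3 in Control and 17.1 in Bru (-1.58, interval from -1.63 to -1.54). OLFML3 and OLFML2A, secreted proteins with an olfactomedin domain, had ratios of -1.88 (90 and 20 reads) and -1.19 (548 and 224 reads). Of the 41 genes, 1 passed the minimum only through Bru and 5, OLFML3 among them, only through Control, so that these had to differ. SPARC, a collagen-binding glycoprotein, had a ratio of -1.02, and ECM1 had 393 and 195 reads, a ratio of -0.94 (interval from -1.21 to -0.71) that did not reach 2-fold. SPP1 (osteopontin), VCAN (versican) and TNC (tenascin C) had ratios of -0.07, 0.01 and -0.41. FBN2, a fibrillin, had 359 and 533 reads and was the 1 gene higher past 1.5-fold (0.59), while its relative FBN1 had 4256 and 2858 (-0.52).

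The 28 expressed proteases of the matrix and their inhibitors had a median of -0.34, with 23 lower and 5 higher. HTRA1, a secreted serine protease, had 1328 and 659 reads (-0.95), and PLAU, the urokinase, 3419 and 2155 (-0.61). MMP2, the gelatinase that was highest among the matrix metalloproteinases at an FPKM of 215 in Control, had 172 in Bru (-0.32), and MMP1 had 190 and 106 reads (-0.77). TIMP2 and TIMP1, which inhibit them, had ratios of -0.64 and -0.09. For MMP9, another gelatinase, 0 reads were seen in Control and 11 after Bru. The receptors of the matrix, 21 integrins, syndecans and others, had a median of -0.30. Of them, ITGB1, the shared beta chain, had an FPKM of 127 and 85.9 (-0.56), ITGB5 a ratio of -0.65, and CD44, the receptor of hyaluronan, one of -0.07 with 20724 and 19043 reads.

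The chaperones of the endoplasmic reticulum, which fold secreted proteins, were lower in 28 of 32 genes (median -0.33), with 4 lower past 1.5-fold and 0 higher. KDELR3, a receptor that returns chaperones to this compartment, had 355 reads in Control and 119 in Bru (-1.50), whereas its relatives KDELR2 and KDELR1 had ratios of -0.47 and -0.20. PDIA5 and PDIA4, which form disulphide bonds, had ratios of -0.99 and -0.68, and XBP1, a transcription factor of the unfolded protein response, had 717 and 402 reads (-0.77). HSPA5, the main chaperone of this compartment, had 21863 and 17392 reads (-0.28). ERN1, the stress sensor that splices XBP1 RNA, had 301 and 440 reads, the highest ratio of the list (0.57).

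The integrated stress response was split. Of 38 expressed genes 20 were higher and 18 lower, with a median of 0.05, and 6 were higher and 2 lower past 1.5-fold. ATF3, a stress-induced repressor and activator, had 691 reads in Control and 1951 in Bru (1.54, interval from 1.43 to 1.68). DDIT3, which encodes CHOP, a factor of stress-induced death, had 428 and 745 (0.85), ATF4 had 1790 and 2673 (0.63), and SESN2, SLC3A2 and STC2 each had a ratio of 0.60. Of genes of amino acid supply, ASNS did not pass the minimum, PSAT1 had a ratio of 0.24, PHGDH of -0.04, and MTHFD2 of -0.20. TRIB3, a pseudokinase that restrains the response, had a ratio of -0.26, and SLC1A4, an amino acid carrier, had 546 and 303 reads (-0.77). In U251 ATF4 had a ratio of 0.63 as well, and DDIT3 one of 1.91.

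Immediate early genes are transcribed within minutes of a stimulus. FOSB had 887 reads in Control and 2779 in Bru (1.69, interval from 1.59 to 1.81), and FOS had 2532 and 4397 (0.85). In U251 these genes were already high in Control, where FOSB had 5631 reads and 5223 in Bru, and ATF3 had 3062 and 3105. The difference of the FOSB ratio, U87 minus U251, was 1.62 (exact interval from 1.51 to 1.76), and that of ATF3 was 1.34 (from 1.21 to 1.5). JUN (0.32), EGR1 (0.37) and DUSP1 (0.49) were higher by less, and SPRY2, an inhibitor of ERK signalling, was lower with 2158 and 1045 reads (-0.99). Over the 31 genes the median was 0.08, with 3 higher and 1 lower past 1.5-fold.

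Of 34 expressed targets of NRF2, 20 were higher and 14 lower, 5 were higher and 0 lower past 1.5-fold, and the median was 0.04. The 5 genes were HMOX1, FTH1, TRIM16L (0.61), FTL and NQO1. HMOX1, which breaks down haem, had an FPKM of 57.4 in Control and 106 in Bru (0.89, interval from 0.82 to 0.96). FTH1 and FTL, the chains of the iron store ferritin, were among the most abundant RNAs, with 40787 and 67069 reads for FTH1 (0.77) and 37784 and 54895 for FTL (0.59). NQO1, a quinone reductase, had 3610 and 5221 reads (0.59). GCLM, of glutathione synthesis, had a ratio of 0.18, and the aldo-keto reductases AKR1C3, AKR1C2 and AKR1B1 had ratios of -0.43, -0.41 and -0.38. NFE2L2, the gene of NRF2 itself, had 1239 and 1015 reads (-0.23). HMOX1 had a ratio of 3.54 in U251, and the difference, U87 minus U251, was -2.65 (exact interval from -2.79 to -2.52).

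Genes of cytosolic ribosomal proteins were higher in 77 of 78, with a median of 0.32 and 5 past 1.5-fold. The interval lay above 0 in 74 of them. RPS18 had an FPKM of 191 in Control and 305 in Bru (0.67) and RPL36 one of 124 and 193 (0.63). The shift was small and even rather than large in a few genes. Factors of ribosome biogenesis were higher in 40 of 46 (median 0.10), led by RRN3, an initiation factor of RNA polymerase I, with 1226 and 1613 reads (0.45). Mitochondrial ribosomal proteins (77 genes, median 0.12) and the nuclear genes of the respiratory chain (74 genes, median 0.11) also lay slightly above 0. Among the 13 genes that mitochondria encode, the 7 of complex I were all higher, with 18086 and 23815 reads for MT-ND5 (0.45), while MT-CO1 and MT-CO3 of complex IV had ratios of -0.17 and -0.23. In U251 0 of these 13 genes were higher, and MT-ND5 had a ratio of -0.55 there.

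Replication-dependent histones, whose messages are made in S phase, differed in both directions. Of 32 expressed genes 7 were higher and 2 lower past 2-fold, with a median of 0.38. Of the 32, 8 passed the minimum only through Bru and 6 only through Control, so that these had to differ. HIST1H4H and HIST1H2BG passed only through Bru, and HIST1H1B and HIST1H2AI only through Control. HIST1H4H had 26 reads in Control and 167 in Bru (2.57, interval from 2.14 to 3.39), HIST1H2BG 26 and 106 (1.97), and HIST1H2BD 135 and 280 (1.10). The linker histone HIST1H1C, the most abundant in Bru among these, went from an FPKM of 87.2 to 153 (0.81). HIST1H1B, another linker histone, had 20 and 2 reads, and HIST1H2AI had 18 and 4. Many of these genes have few reads, and 15 of the 32 intervals left out 0. This share is near that of all 10653 expressed genes, where 1738 intervals lay above 0 and 3539 below it.

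The genes of S phase and mitosis were close to their Control levels in U87. The 45 S phase genes had a median of -0.09, 36 of them lower, and 0 were past 1.5-fold. The lowest was MCM5, a subunit of the replicative helicase, with 3075 and 2238 reads (-0.40), and PCNA, the clamp of replication, had 3245 and 3079 (-0.02). The 48 mitosis genes had a median of -0.10 and 0 past 1.5-fold. ANLN, which builds the cleavage furrow, had the lowest ratio (-0.35), MKI67 had 10440 and 9275 reads (-0.12), and CDC20 had 2966 and 2959. In U251 the medians of the same genes were -0.83 and -0.61, with 45 of 45 and 45 of 48 lower. No test compares the lists of both lines.

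Targets of p53 had the highest median in U87 among pathway lists with more than 1 expressed gene. Of 27 expressed genes 25 were higher and 2 lower, with a median of 0.43, and 9 were higher and 0 lower past 1.5-fold. The interval lay above 0 in 24. PLK2, a stress-induced kinase, had 1885 reads in Control and 3221 in Bru (0.82), MDM2, which degrades p53, had 1553 and 2435 (0.69), and BTG2, which slows proliferation, had 69 and 115 (0.75). CDKN1A, which encodes the cell cycle inhibitor p21, had an FPKM of 83.7 and 132 (0.66, interval from 0.60 to 0.71), and DDB2, of DNA repair, had 1366 and 2030 reads (0.62). PMAIP1, a death gene that other factors also drive, had 1837 and 1649 (-0.10).

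In U251 the same 27 genes had a median of -0.22, with 20 lower and 7 higher. CDKN1A went from 2277 to 719 reads there (-1.48), and GDF15, a stress-induced cytokine, from 6205 to 539 (-3.34), against 2034 and 2433 in U87 (0.31). GDF15 had the largest difference of ratios between the lines among genes with at least 50 reads in each line, 3.65 in U87 minus U251 (exact interval from 3.5 to 3.81, counting error only).

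**Figure D3:**
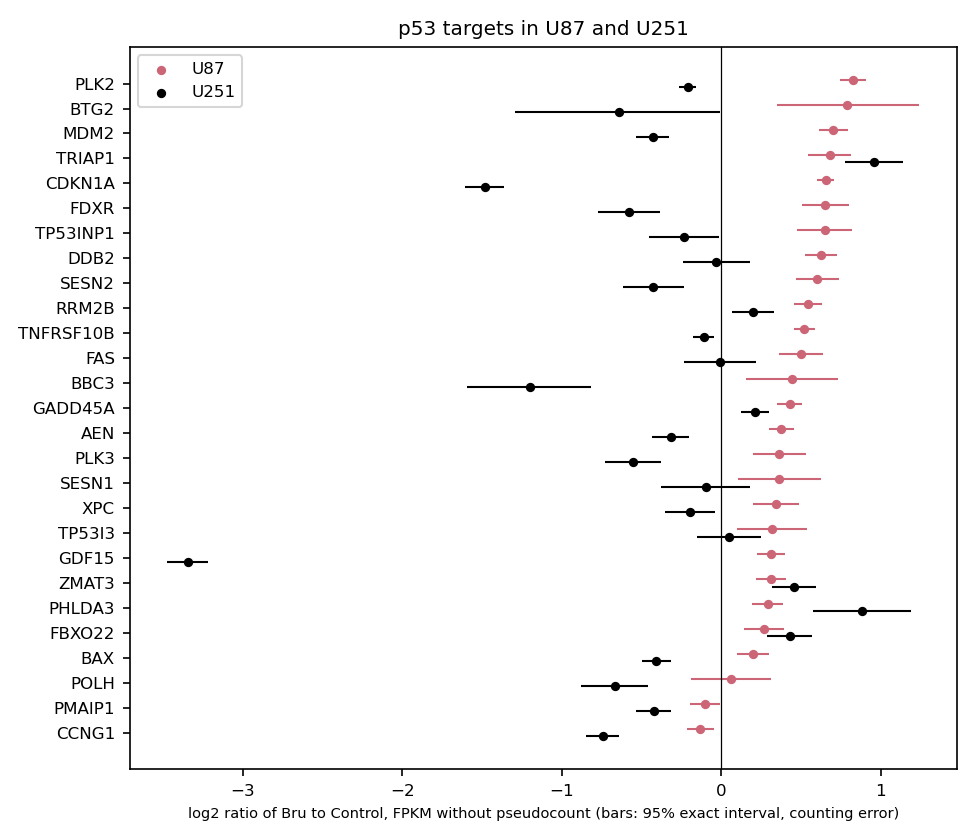
Log2 ratio of Bru to Control without a pseudocount for 27 expressed p53 targets, with U87 in red and U251 in black and bars for the 95% exact interval, which covers counting error only. In U87 25 points lie above 0, and in U251 20 of the same 27 genes lie below it, GDF15 farthest.

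Genes of apoptosis differed little as RNA. Of 27, 2 were past 1.5-fold, BIRC3 with 189 and 374 reads (0.99), which encodes an inhibitor of cell death downstream of NF-kB, and TNFRSF10D, a decoy receptor of TRAIL, with 1072 and 1862 (0.85). The death receptors TNFRSF10B and FAS had ratios of 0.52 and 0.50. BAX, which opens the mitochondrial membrane, had 1573 and 1741 reads (0.20), BCL2, which opposes it, 392 and 347 (-0.12, interval from -0.33 to 0.09), and CASP9, which starts the caspase cascade, 274 and 299 (0.17, interval from -0.06 to 0.42). A difference in BCL2 and CASP9 was not detectable at this depth.

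Targets of NF-kB and cytokines were higher in 18 of 27 (median 0.31), with 5 higher and 1 lower past 1.5-fold. The chemokines CXCL2 and CXCL3 had ratios of 0.71 and 0.70, with 1465 and 2304 reads for CXCL2, and IL32, a cytokine, had 27 and 78 reads (1.40, interval from 0.94 to 2.27). CCL2, which attracts monocytes, had 49 and 22 reads (-0.99), and CSF1, a growth factor of macrophages, had 10252 and 6957 (-0.50). IL32 passed the minimum only through Bru and CCL2 only through Control, so that both had to differ in that direction. NFKBIA and TNFAIP3, which end NF-kB signalling, had ratios of 0.41 and 0.42. The 39 interferon-stimulated genes had a median of -0.08 with 0 higher and 2 lower past 1.5-fold, USP18 (-0.83) and IFI44L (-0.61). USP18 passed the minimum only through Control.

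Other pathways gave single genes more than shifts. In axon guidance (33 genes, median -0.18) 4 semaphorins were lower past 2-fold. Of these, SEMA5A passed the minimum only through Control. SEMA6B had 1067 and 314 reads (-1.69), SEMA5A 338 and 137 (-1.13), SEMA3B 488 and 215 (-1.09) and SEMA7A 3036 and 1443 (-1.02). SEMA3C had 2047 in both libraries, and the ligand SLIT2 had 125 and 259 (1.01). SLIT2 passed the minimum only through Bru, so that it had to be higher there. With a pseudocount of 1 the ratios of SEMA5A, SEMA3B and SEMA7A were -0.63, -0.85 and -0.99, short of 2-fold, and that of SEMA7A was also short of it when scaled to the median (-0.96), the 75th percentile (-0.95) or total reads (-0.97). Among genes of TGF-beta signalling and mesenchymal state (27 genes, median -0.09), CDH11, a cadherin of mesenchymal cells, had 320 and 124 reads (-1.17) and PRRX1, a mesenchymal transcription factor, 1855 and 986 (-0.85), while VIM had a ratio of -0.08 and SNAI2 of 0.36. CDH11 passed the minimum only through Control. Of 7 receptor tyrosine kinases (median 0.04) 1 was past 1.5-fold, PDGFRB with 353 and 206 reads (-0.69), and EGFR and MET had ratios of 0.11 and -0.02.

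Glycolysis and hypoxia genes were slightly higher, 26 of 33 (median 0.12), with 1 higher and 1 lower past 1.5-fold. These were CA9, a hypoxia-induced carbonic anhydrase, with 36 and 64 reads (0.83), and ALDOC, a glycolytic aldolase, with 108 and 51 (-0.96). Lysosome and autophagy genes (42, -0.12), cytosolic heat shock proteins (17, -0.04) and the proteasome (36, 0.04) had medians between the 25th and 75th percentile of all genes, and the median of the heat shock proteins was above 0 (0.034) when scaled to the 75th percentile. Their outlying members were ATP6AP1, a subunit that assembles the proton pump of lysosomes, with 2006 and 1037 reads (-0.89), and HSPA1B, an inducible heat shock protein, with 1195 and 749 (-0.62). SQSTM1, an autophagy receptor, had 28097 and 37051 reads (0.45) and in U251 18938 and 71882 (2.10).

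**Figure D4:**
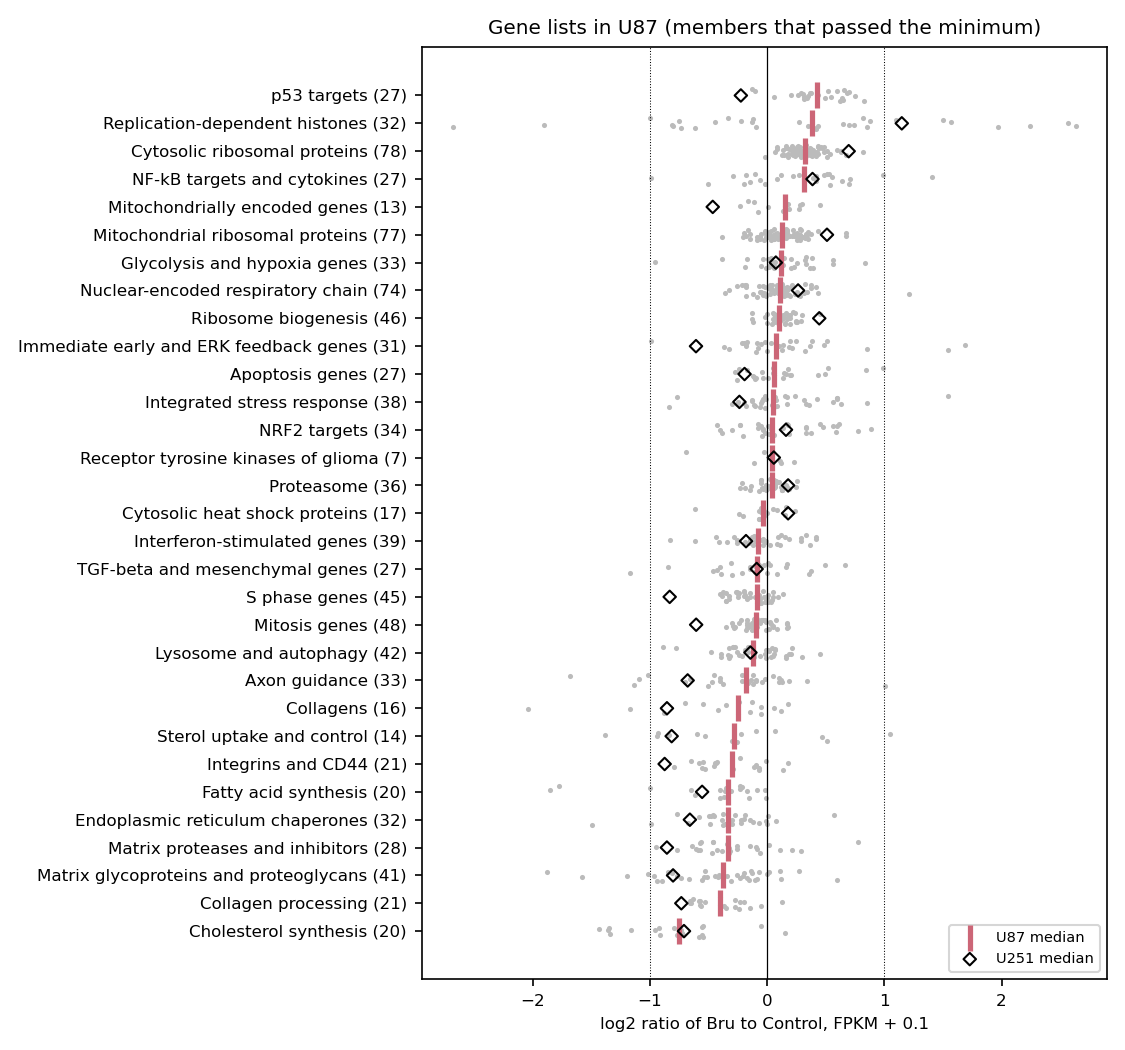
Log2 ratio of Bru to Control in U87 for each expressed member (grey points) of 31 gene lists, with the number of members in brackets, the U87 median as a red bar and the median of the same genes expressed in U251 as an open diamond. Cholesterol synthesis is lowest and p53 targets are highest in U87. The diamonds lie farther from 0 than the bars for the S phase, mitosis and matrix lists.

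Several large differences lay in genes outside the pathway lists above. DHRS2, a short-chain dehydrogenase, had 30 reads in Control and 617 in Bru (3.91), against a ratio of 3.72 in U251 (difference 0.19, exact interval from -0.56 to 0.97). Its relatives stayed between -0.45 for DHRS4 and 0.39 for DHRS4L2. The median of the list was -0.04 over 9 expressed genes, DHRS2 included. RENBP, a renin-binding epimerase, had 35 and 116 reads (1.68), and ZNF554, a zinc finger gene, had 25 and 92 (1.64). On the lower side, HLA-DRB5, a class II antigen-presenting chain, had 77 and 21 reads (-1.72), MYOZ2, a muscle protein of the Z disc, had 70 and 18 (-1.68), IGFL3, an insulin growth factor-like ligand, had 47 and 13 (-1.71), and CD24, a surface glycoprotein, had 97 and 29 (-1.52). These 4 genes have under 100 reads in each library, and their intervals are wide, from -2.81 to -0.89 for IGFL3. DHRS2, RENBP and ZNF554 passed the minimum only through Bru, and HLA-DRB5, MYOZ2 and CD24 only through Control, so that these had to differ.

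Reads of some named genes can be placed on a near-identical copy. SMN1, which encodes a protein of spliceosome assembly, went from 236 reads in Control to 821 after Bru (1.83), and 86.5% of its 50-base stretches also occur in other genes, all of them in SMN2. The reads of both copies together went from 498 to 1106, a ratio of 1.21 (interval from 1.05 to 1.36). In U251 they went from 1010 to 682 (-0.39). U2AF1L5 shares 94.3% of its stretches, nearly all with the splicing factor gene U2AF1, and both together went from 1165 to 283 reads in U87 (-1.99, interval from -2.18 to -1.80) and from 831 to 760 in U251 (0.05). HSPA1B was read together with its copy HSPA1A, and the pair went from 1226 to 764 reads in U87 (-0.63, interval from -0.76 to -0.50) and from 944 to 1243 in U251 (0.58). The direction in U87 held for the sum of copies in these 3 pairs, but how reads that fit both copies were handled is not known. In U251 U2AF1L5 alone went from 570 to 32 reads (-3.32).

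A group of genes without a read in Control had reads in Bru. They were singled out after their values were seen. CD300LB (chromosome 17 from 74521174 to 74531474 on the minus strand), an immunoglobulin-like receptor of myeloid cells, had 0 reads in Control and 245 in Bru, at least 84.8-fold higher against the floor of 3 reads. The lower limit of its exact interval was 6.10 on the log2 scale. BTBD17 (chromosome 17 from 74356416 to 74361946 on the minus strand), a BTB domain gene, had 0 and 54 reads, at least 18.7-fold higher against the floor, with a lower limit of 3.88. NEURL3, a ubiquitin ligase gene, had 0 and 53 reads, at least 18.3-fold higher against the floor, with a lower limit of 3.85, and in U251 0 and 73. KIF1A, a motor protein of axonal transport, had 0 and 121 reads, and CCL18, a chemokine of macrophages, 0 and 38.

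Over all biotypes, 44 genes had 0 reads in U87 Control and at least 10 in U87 Bru, 30 of them protein-coding, and 5 genes had the reverse. At 20 reads or more the numbers were 16 and 0. In U251 19 genes were seen in Bru alone and 21 in Control alone at 10 reads. A read was seen in 25464 genes after Bru and in 24388 genes of Control in U87, although the Bru library had the fewer reads. Of the 44 genes 32 had no read in U251 Control, and 2 went from 0 to at least 10 reads in both lines.

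**Figure D5:**
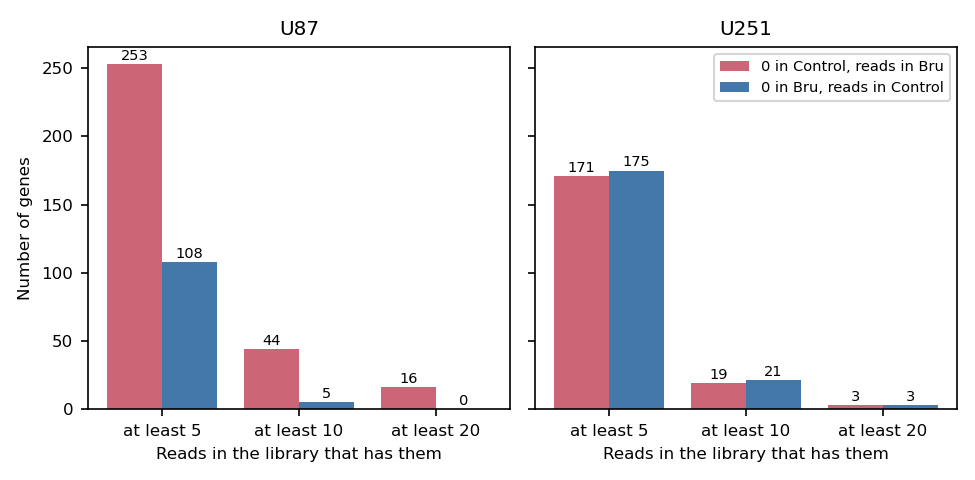
Number of genes of all biotypes with 0 reads in 1 library of a line and at least 5, 10 or 20 reads in the other, with bars from 0, red for genes seen in Bru alone and blue for genes seen in Control alone. In U87 the red bars are higher (253 against 108, 44 against 5 and 16 against 0), and in U251 they are close to the blue ones.

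Some of these genes lie side by side. Of the 44, 11 lie in 4 runs in which neighbours are at most 200 kilobases apart. The largest run is on chromosome 17, where BTBD17, GPR142, CD300A and CD300LB had 0 reads in Control and 54, 15, 18 and 245 in Bru. GPRC5C and CD300C, which lie within and beside this run, had 38 and 36 and 13 and 13 reads in Control and Bru, and the next members of the CD300 family, CD300LD, CD300E and CD300LF, had 0 in Control and 1, 3 and 1 in Bru. On chromosome 2, COLEC11, ALLC and DCDC2C had 0 in Control and 12, 10 and 31 in Bru, and KIF1A lay beside AGXT, which had 0 and 21. On chromosome 19 the run holds RFPL4A and RFPL4AL1, and 76.0% of the 50-base stretches of RFPL4AL1 also occur in RFPL4A. Since some of these genes are known from myeloid cells, markers of such cells were read. PTPRC, AIF1, C1QA, C1QB, TYROBP and FCGR3A, 6 of the 11 markers, had 0 reads in both libraries. ITGAM had 8 and 37 reads, CD14 3 and 8, LYZ 0 and 2, CD68 20 and 16, and CSF1R 123 and 94. The summed FPKM of the list was 1.99 in Control and 2.15 in Bru.

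Markers of other cell types were mostly low in both libraries. Of the oligodendrocyte and endothelial markers 0 passed the minimum, with summed FPKM of 0.33 and 0.42 and of 0.71 and 0.34. Of 8 neuronal markers 4 passed (median -0.37), and their summed FPKM was 12.9 and 10.3. Epithelial markers summed to 5.06 and 5.12. Of the 8 fibroblast and pericyte markers 7 had a read and 5 passed, 4 of them lower and 1 higher. Their summed FPKM of 54.8 and 23.4 rests mostly on COL1A2 and COL1A1. PDGFRB had 353 and 206 reads and FAP 397 and 316, while DCN had 0 in both libraries. Of the 14 glioma and astroglial markers 6 passed (median -0.07), with NES at 147 and 55 reads (-1.23) and OLIG2 at 38 and 61 (0.66). NES passed only through Control and OLIG2 only through Bru, so that both had to differ. In bulk RNA, fewer cells of a kind and less RNA per cell cannot be told apart.

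Set beside U251, U87 had fewer genes past the cutoff. In U251 240 of 10803 expressed protein-coding genes were higher past 2-fold (2.22%) and 529 were lower (4.9%), 769 in all (7.12%). Past 1.5-fold 1039 were higher (9.62%) and 1651 were lower (15.3%). Of the genes past 2-fold, 33 were shared, 28.9% of those in U87 and 4.29% of those in U251, with 7 higher in both lines, 26 lower in both and 0 in opposite directions. Of the 114 genes in U87, 63 had an FPKM of at least 1 in U251 and could be shared. HAS2, which makes hyaluronan, was lower by less in U87, with a difference of 2.85 (exact interval from 2.55 to 3.53), as was PADI3, which modifies arginine in proteins (3.44, from 2.62 to 4.25). In the other direction, TXNIP and ARRDC4, which restrain glucose uptake, had ratios of -0.05 and -0.07 in U87 and of 2.54 and 2.25 in U251, and TRAF1, an adaptor of NF-kB signalling, had 0.22 and 2.56. These differences compare single libraries of both lines, with 1 library in each condition. The Bru concentration may differ between the lines, and line and dose cannot then be told apart.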

How the data were processed

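RNA of U87 and U251 cells, as Control or after 48 h of Bru, was sequenced as paired-end reads from 1 library per condition, and groups were taken from the sample titles. The authors deposited FPKM per gene with gene lengths for each library. The submitters' processing notes name HISAT2 2.0.5, StringTie 1.3.3b, featureCounts 1.5.0-p3 and DESeq2 1.16.1 without their roles, and the build hg18, whereas all 58735 gene coordinates equal those of GENCODE release 29 on GRCh38, which is used here. The library size inside the FPKM is not given in the sources used here.

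Whole reads were recovered from FPKM and length, with a library size of 18070193 (U87 Control) and 17406238 (U87 Bru). Ratios of Bru over Control were taken as log2 of FPKM + 0.1 for protein-coding genes with FPKM of at least 1 in either library and called past 2-fold, after the study's fold cutoff. With 1 library a side no p-value was given. Intervals are exact 95% Clopper-Pearson intervals, or exact conditional intervals of the odds ratio between lines (scipy 1.17.1), and the floor is 3 reads. The reads carry no molecular identifiers.

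The members and the 33 pathway and 7 marker lists were chosen with earlier results of these data known. Named genes are the 12 largest rises and 12 largest falls with at least 50 reads, up to 4 genes a list with the largest ratio, genes the study measured, transcription factors of the sterol, antioxidant and stress programmes, the 4 genes with the largest difference between lines in each direction and the 5 most abundant genes. Other list members were named after their values were seen. Some genes of this rule are counted in the lists but not reported here by name. The 5 most abundant genes, all mitochondrially encoded, had ratios of -0.17 (MT-CO1), -0.11 (MT-CO2), -0.23 (MT-CO3), -0.08 (MT-ATP6) and 0.30 (MT-ND4). Alternatives changed the pseudocount, scaling, minimum and biotypes, or added a negative binomial exact test. The scripts were tested on simulated data.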

Additional observations from a re-analysis of the deposited data

Results flagged for a closer look

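Each of the following genes had a 95% exact interval on 1 side of 0 in U87 and on the other side in U251, with ratios more than 1 apart on the log2 scale. Each line has 1 library per condition, so that the difference was tested against counting error only. GDF15 had a ratio of 0.31 in U87 and -3.34 in U251, a difference of 3.65. SMN1 had 1.83 and -0.75, a difference of 2.58. Most of its sequence is shared with SMN2, and the sum of both copies had 1.21 and -0.39. CA9, a hypoxia-induced carbonic anhydrase with 36 and 64 reads in U87, had 0.83 and -1.13, a difference of 1.97. TRIM22 had 0.42 and -0.91, a difference of 1.33, and BTG2 had 0.75 and -0.57, a difference of 1.32. FOS had 0.85 and -0.34, a difference of 1.19, MDM2 had 0.69 and -0.42, a difference of 1.12, PLK2 had 0.82 and -0.21, a difference of 1.03, and CXCL2 had 0.71 and -0.31, a difference of 1.02. HSPA1B went the other way, with -0.62 in U87 and 0.58 in U251, a difference of -1.20.

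Genes that do not code for protein are outside the comparisons above. Among them 14 had 0 reads in U87 Control and at least 10 in U87 Bru. MEG3, a long noncoding RNA of an imprinted region, was at 0 reads in Control of U87 and at 38 after Bru, and in U251 it had 1964 and 590.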

How the results depend on the processing

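The number of U87 genes past 2-fold, 114 (47 higher and 67 lower), depended on the biotypes, the treatment of low FPKM and the assumed spread. It was 48 (21 and 27) with a pseudocount of 1, 39 (11 and 28) with a minimum FPKM of 5, 525 (304 and 221) with a minimum of 0.1 and likewise without a filter, and 760 (442 and 318) with all biotypes. With a minimum mean FPKM of 1 it was 75, with 22 higher, and with at least 50 reads 29 were higher. A negative binomial exact test at an assumed coefficient of variation of 0.4 left 28 (19 and 9), and one at 0.2 left 104. The assumed coefficients are not estimates. In U251 769 genes became 443 with a pseudocount of 1, 482 with a minimum of 5, 1185 with a minimum of 0.1 or without a filter and 1532 with all biotypes. Rescaling left between 107 and 131 genes in U87, with 52 higher and 55 lower at a median of 0 and 53 and 54 at the 75th percentile.

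Of 35 lists with a median, the 14 past 0.25 in size kept its sign in all 168 alternatives. Medians that moved by more than the members' typical counting error were those of sterol control (-0.41) and collagens (-0.38) with a minimum FPKM of 5, matrix glycoproteins (-0.20) and integrins (-0.18) without a filter, fibroblast markers (-1.60, 2 genes) with a minimum of 5, ribosomal proteins (0.38, 0.39 and 0.36) and mitochondrially encoded genes (0.21, 0.22 and 0.20) when rescaled to the median, the 75th percentile or total reads, and heat shock proteins (0.034) at the 75th percentile. Of 41 named genes past 2-fold, 26 stayed past it in each of 7 alternatives of pseudocount and scaling and 0 changed direction. No paired analysis was possible because each group holds 1 library. Without replicates the spread between cultures is unknown.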
